A study of Macaca fascicularis with 24 samples.

Results

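Macrophage marker genes were followed in the thoracic aorta of cynomolgus macaques. The list held 10 genes: CD163, MRC1, CD14, CD68, MSR1, TYROBP, FCER1G, CSF1R, AIF1 and PTPRC. Its members were all probe sets (groups of short probes that read 1 transcript) whose only gene symbol in the platform annotation was 1 of these names. That rule used no measured values, but the 10 genes were chosen with earlier results of these data known. In all, 19 of the 22215 probe sets that were not array controls qualified, and they read 9 of the 10 genes, out of 11963 genes with such a probe set. CD68, a lysosomal membrane protein of macrophages, had no probe set of its own. The probe set annotated to both CD68 and SNORA67 read 4.79 to 6.23 (log2 level) over the samples, was below the filter on dim probe sets and is attributed to neither gene.

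Macrophages are phagocytes that take up dying cells, lipoproteins, haemoglobin and microbes. Resident macrophages lie mainly in the outer coat of a healthy artery, and monocytes from the blood add to them when the wall is inflamed. CD163, MRC1 and MSR1 are uptake receptors, CD14 helps to sense bacterial lipopolysaccharide, TYROBP and FCER1G are signalling adaptors, CSF1R is the receptor for the growth factor that keeps macrophages alive, and AIF1 is an actin-binding protein of activated macrophages. PTPRC (CD45) is carried by nearly all leukocytes, and TYROBP and FCER1G are also made by natural killer cells, mast cells and granulocytes, so not all members belong to macrophages alone.

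The study asked how transcripts of the aorta differ with age and sex. It had 24 arrays, 6 for each of 4 groups. Young males had a mean age of 6.6 years and young females of 7.2 years, and the means of the old groups were 20.0 years in males and 21.2 years in females. The labels give no age for a single animal, no treatment, and no statement that the samples of a group were separate animals, so the p-values measure only the spread between these samples. The array carried human probes, and a mismatch between human probe and monkey transcript can make a gene look dim on all arrays alike. For that reason levels are compared between samples, and not between genes as amounts of RNA. Dim and bright refer to the signal of a probe set on the array. Spans and SDs of different probe sets are set side by side as measured on the array, and are understated for dim ones. In whole tissue, fewer macrophages and less marker RNA per macrophage cannot be told apart.

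Several libraries stood apart. In 3 pairs of arrays (old females 1 and 4, young females 3 and 4, young males 3 and 4) the deviations from the other arrays correlated at 0.792 or more, against at most 0.571 in all other pairs. Each pair was averaged, counted once and named by its lower number, which left 6 old males and 5 samples in each other group, 21 in all. The members differed within these pairs by a median of 0.10 to 0.20 (log2), and by at most 1.09. A further 6 samples, of which 3 were males (young male 1, old males 2 and 4) and 3 females (young female 3, old females 2 and 6), had a median correlation with the other arrays of 0.809 to 0.828, against 0.878 to 0.935 on the rest. Their spiked-in hybridisation controls were brighter (12.8 to 14.3 against 11.2 to 12.1, log2), and their actin control probes had a higher 3′ to 5′ ratio (0.785 to 1.73 against -0.249 to 1.15, log2), a sign of RNA that is broken or incompletely copied. The sample labelled young male 1 read 10.31 (log2) for XIST, a transcript of females. The other young males read 6.09 to 7.15 and the young females 11.47 to 12.42. Its Y-linked RPS4Y1, at 11.97, was below the 12.64 to 12.95 of the other young males and above the 6.41 to 8.34 of the young females. Smooth muscle markers that define the vessel wall were bright in all 21 samples: ACTA2 read 13.89 to 15.15 and MYH11 12.84 to 15.19.

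Levels are log2(intensity + 16) after quantile normalisation, and differences are on the same scale. Among the 9 readable members, 7 had at least 1 probe set bright enough to be tested (mean level at or above the median of all probe sets). That gave 9 tested probe sets, with 2 each for CD163 and PTPRC. The 4 probe sets of MSR1 and the 4 of AIF1 were all below this filter. No member passed the threshold (limma, Benjamini-Hochberg adjusted p below 0.05 over 11108 probe sets) in any of 6 comparisons of age and sex, and the smallest adjusted p of a member was 0.984.

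The haemoglobin receptor CD163, a marker of resident and repair-type macrophages, did not overlap between young females and young males in 1 of its 2 tested probe sets. Its brightest probe set read 9.10, 9.72, 9.86, 9.03 and 9.37 in young females 1, 2, 3, 5 and 6, and 9.03, 7.38, 10.58, 8.94 and 9.13 in old females 1, 2, 3, 5 and 6. It read 8.63, 8.95, 8.97, 8.18 and 8.22 in young males 1, 2, 3, 5 and 6, and from 8.45 to 9.43 with a median of 9.10 in the 6 old males. Each young female lay above each young male, by 9.03 against 8.97 at the closest, where 0.405% of all tested probe sets were lower in young males without overlap. The old females spanned both the lowest and the highest value of the series, in samples 2 and 3. In the dimmer tested probe set the young groups overlapped: young males 2 and 3 read 8.32 and 8.08, and young female 5 read 7.61.

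The mannose receptor MRC1 (CD206), which binds sugar chains on microbes and on the body's own glycoproteins, had much the same pattern. The young females were tightly grouped, at 9.57, 9.38, 9.43, 9.40 and 9.51 in samples 1, 2, 3, 5 and 6, and the old females read 9.07, 7.01, 10.51, 8.73 and 9.56. The young males read 7.92, 9.27, 8.98, 8.06 and 7.62, and the old males 8.52 to 10.04 with a median of 8.93. Again young females and young males did not overlap, and old females 2 and 3 were the lowest and the highest of all samples. From lowest to highest sample, MRC1 spanned 11.3-fold and CD163 9.21-fold.

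MSR1, the class A scavenger receptor that takes up modified lipoproteins, was dim. Its brightest probe set ran from 5.27 in young male 6 to 7.80 in old female 6. Group means were 7.01 ± 0.37 (SD, n = 5) in young females, 6.72 ± 0.74 (n = 5) in old females, 6.23 ± 0.66 (n = 5) in young males and 6.60 ± 0.54 (n = 6) in old males. All 4 groups overlapped.

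CD14, the lipopolysaccharide co-receptor of monocytes and macrophages, was level in most samples and low in a few. It read 8.54, 8.72, 9.21, 9.31 and 8.09 in young females 1, 2, 3, 5 and 6, and 9.28, 7.56, 9.60, 8.89 and 9.44 in old females 1, 2, 3, 5 and 6. Young males ran from 8.08 to 8.93 and old males from 5.01 to 9.09, with a median of 8.39. The 3 lowest values, 5.01 in old male 4, 7.15 in old male 2 and 7.56 in old female 2, all came from samples that stood apart. The 15 samples that did not stand apart lay between 8.09 and 9.60, and the other samples that did, old female 6, young female 3 and young male 1, read 9.44, 9.21 and 8.08.

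TYROBP (DAP12), the adaptor through which TREM receptors signal, varied least of the members from lowest to highest sample, 4.33-fold. It read 9.23, 9.38, 9.13, 9.08 and 9.52 in young females, and 9.13, 8.65, 10.38, 9.80 and 10.50 in old females, both in the order 1, 2, 3, 5 and 6. Young males read 9.48, 8.88, 8.44, 8.76 and 8.91 in that order, and old males 8.38 to 9.35 with a median of 8.83. The 3 highest values were those of old females 6, 3 and 5.

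FCER1G, the gamma chain shared by Fc receptors, placed the same 3 samples on top. Old females 1, 2, 3, 5 and 6 read 9.94, 9.70, 11.50, 11.03 and 11.07. Young females lay between 10.13 and 10.36, young males between 8.98 and 10.33, and old males between 9.54 and 10.35. Old females 3, 5 and 6 thus lay above every sample of the other 3 groups, while old females 1 and 2 lay below every young female.

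CSF1R, the receptor for CSF1 and IL34, lay between 8.80 and 10.24 in all samples but 1. It read 9.38, 9.82, 9.71, 9.43 and 9.38 in young females 1, 2, 3, 5 and 6, and 9.41, 9.68, 9.61, 10.06 and 10.24 in old females 1, 2, 3, 5 and 6. It read 9.01, 9.51, 9.09, 9.39 and 8.80 in young males 1, 2, 3, 5 and 6, and 6.74 to 9.53 with a median of 9.27 in old males. Old male 2, a sample that stood apart, gave the 6.74, and the next lowest old male read 9.13.

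AIF1 (IBA1) was near the floor in most samples and bright in a few. Its brightest probe set read 10.03 in old female 3 and 9.73 in old female 6. Young females 2 and 6, young male 2 and old male 3 followed, at 7.93, 7.75, 7.87 and 7.52, and the remaining 15 samples ran from 5.48 to 6.71. The other correlated AIF1 probe sets did not share all of this: in old male 3 they read 5.86 and 6.03, within the 5.57 to 6.29 of the other old males.

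PTPRC, the leukocyte phosphatase CD45, had the widest span of the 9 brightest probe sets, 58.8-fold. Old females 1, 2, 3, 5 and 6 read 7.68, 7.74, 8.07, 8.93 and 12.19, and old males ran from 6.31 to 7.64 with a median of 7.11. Young females read 7.46, 7.93, 7.71, 8.04 and 8.62, and young males 6.67, 8.23, 7.55, 7.10 and 9.05. Each old female lay above each old male, by 7.68 against 7.64 at the closest, and old female 6 lay far above all other samples. Of all tested probe sets, 0.171% were lower in old males without overlap. In the dimmer tested PTPRC probe set these groups overlapped: old females 1 and 2 read 6.78 and 7.49, and old males 1, 3 and 6 read 8.01, 8.09 and 7.70. Measured against all 11108 tested probe sets, the within-group SD of the brightest PTPRC probe set lay at percentile 96.9, and those of CD14 and MRC1 at 94.7 and 87.8. Those of TYROBP and FCER1G, at 54.1 and 54.8, were near the middle.

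**Figure D1:**
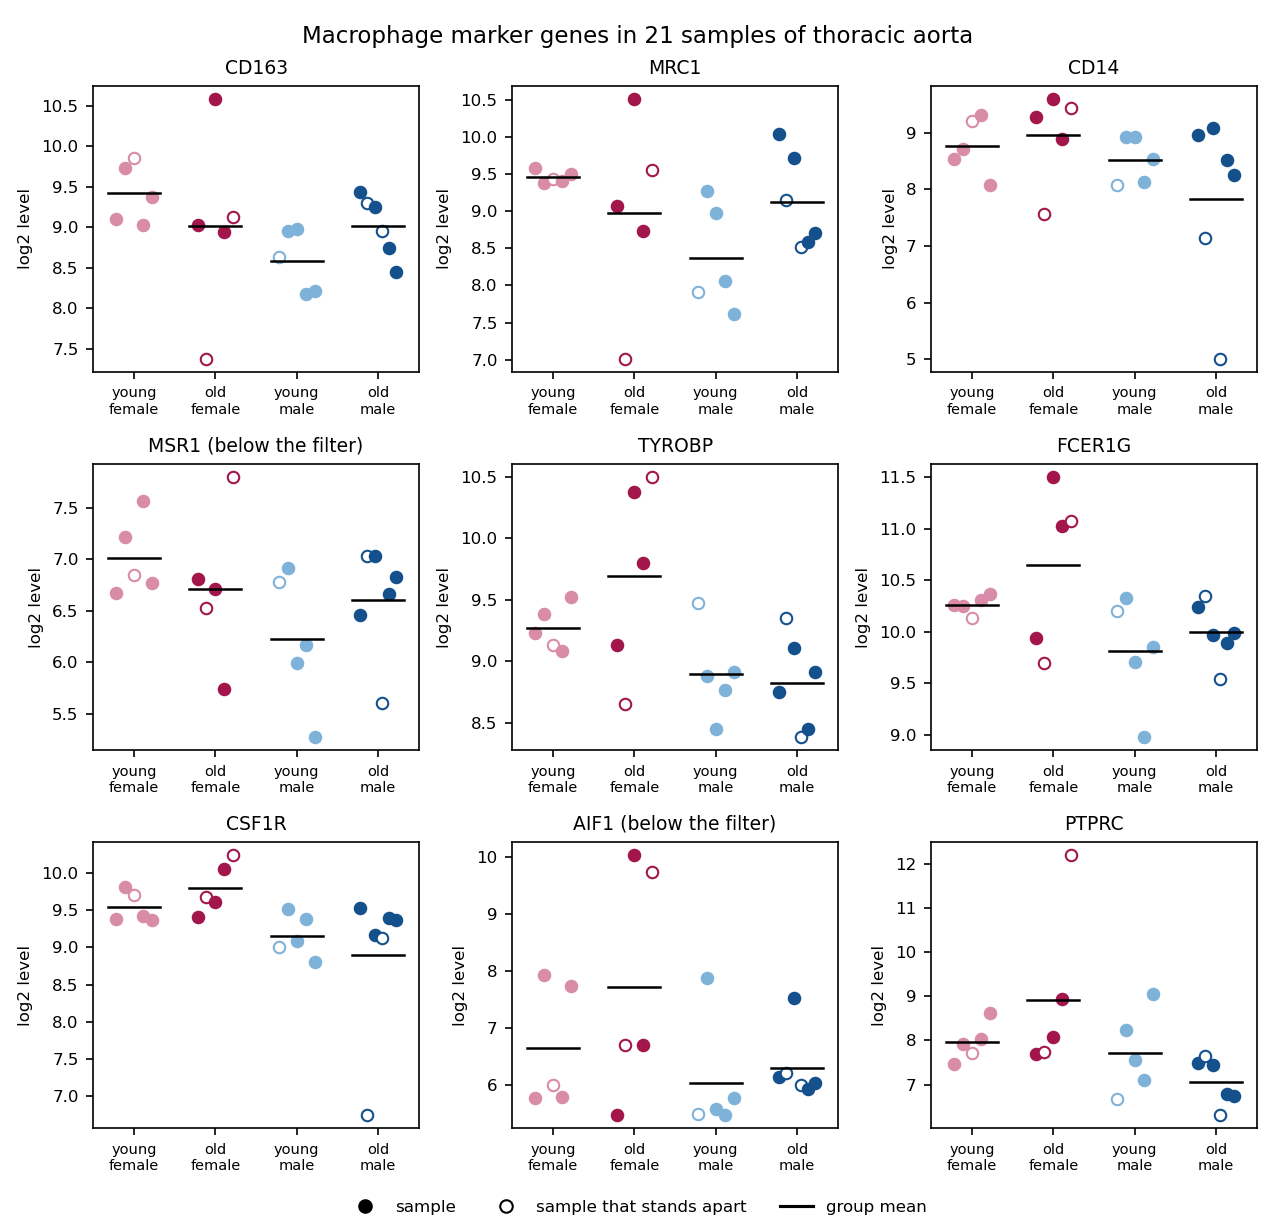
Log2 level (vertical axes, a separate scale per gene) of the brightest probe set of each of the 9 readable members in the 21 samples, by group. Each point is a sample, open points are the 6 samples that stood apart and bars are group means; PTPRC reaches 12.19 in old female 6, and CD163 and MRC1 do not overlap between young females and young males.

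A content score per sample was taken as the mean, over the 9 genes, of the log2 level minus its mean over samples. It ran from -0.99 in old male 4, 0.505-fold of the mean over samples, to 1.48 in old female 6, 2.79-fold of that mean. Old female 3 followed at 1.19, and all 9 members were above their means in both. Old female 3 was not among the samples that stood apart, and its actin 3′ to 5′ ratio, 1.15, was above that of 4 of those 6. It had the higher score of the 2 with arrays centred on their median (1.49) and without PTPRC, FCER1G and TYROBP (1.32), and young male 5 was the lowest sample in the values as deposited (-0.77). Old male 4 had 0 of 9 members above their means. The next scores were far lower: 0.45 in young female 2, 0.34 in young female 6, 0.29 in young male 2 and 0.28 in old female 5.

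By group, the score averaged 0.46 ± 0.86 (SD, n = 5) in old females, 0.22 ± 0.18 (n = 5) in young females, -0.33 ± 0.37 (n = 5) in young males and -0.29 ± 0.42 (n = 6) in old males. The young females were the most alike, with scores from -0.03 to 0.45, and the old females the least, with scores from -0.60 to 1.48. Old minus young was 0.04 in males and 0.23 in females, and the latter became -0.35 without old females 3 and 6. The difference in males was 0.20 without the 6 samples that stood apart, and ranged from -0.07 to 0.19 with 1 sample left out. In females the difference was 0.24 without those 6, and ranged from -0.02 to 0.50 with 1 sample left out. On the 6 genes other than PTPRC, FCER1G and TYROBP it was 0.15 in males and 0.06 in females. Both age differences were smaller than the within-group SD of 0.52. Male minus female was -0.56 in young animals and -0.75 in old animals, and the latter became -0.17 without old females 3 and 6. A score over chosen members is a description and was given no test. The 6 samples that stood apart ran from -0.99 to 1.48 and the other 15 from -0.68 to 1.19.

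The 2 samples with the highest scores differed in what accompanied the macrophage markers. In old female 6 the mean deviation of the T cell list was 1.52, of the B cell list 2.39, of the pan-leukocyte list 2.17 and of the MHC class II list 1.59, each the highest of the 21 samples, while the smooth muscle list was at -1.61, the lowest. A list's mean deviation, here and below, also covers genes below the filter. Of the genes on the array, 4 of 15 for T cells and 2 of 9 for B cells were tested. CD3D, a chain of the T cell receptor complex, read 12.18 in old female 6 against at most 8.58 elsewhere, and CD79A of the B cell receptor read 9.36 against at most 7.55. Of the other chains, CD3G read 7.03 against at most 6.36, while CD3E read 7.12, below the 8.35 of old male 4. These T and B cell probe sets were all below the filter. The resident macrophage list of old female 6 was at -0.06, and its osteopontin, SPP1, read 14.32 against a median of 8.22 over the samples. In old female 3 the T and B cell lists were at 0.03 and 0.005, while the resident macrophage list, at 0.49, was the highest of all samples. The monocyte list was high in both, at 1.14 in old female 6 and 1.03 in old female 3. In old female 3 S100A8, a calcium-binding protein of monocytes and neutrophils, read 11.16, haem oxygenase HMOX1 11.66 and the scavenger receptor MARCO 8.66, each the highest of the 21 samples. Of the other defining markers of these lists, S100A9 was highest there too, at 9.70. S100A12 (5.75), CD36 (10.82), SCARB1 (6.71), BLVRA (11.14) and BLVRB (10.09) were not. MARCO, S100A9 and S100A12 were below the filter. What these other cell markers contribute to PTPRC, TYROBP and FCER1G was not tested.

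**Figure D2:**
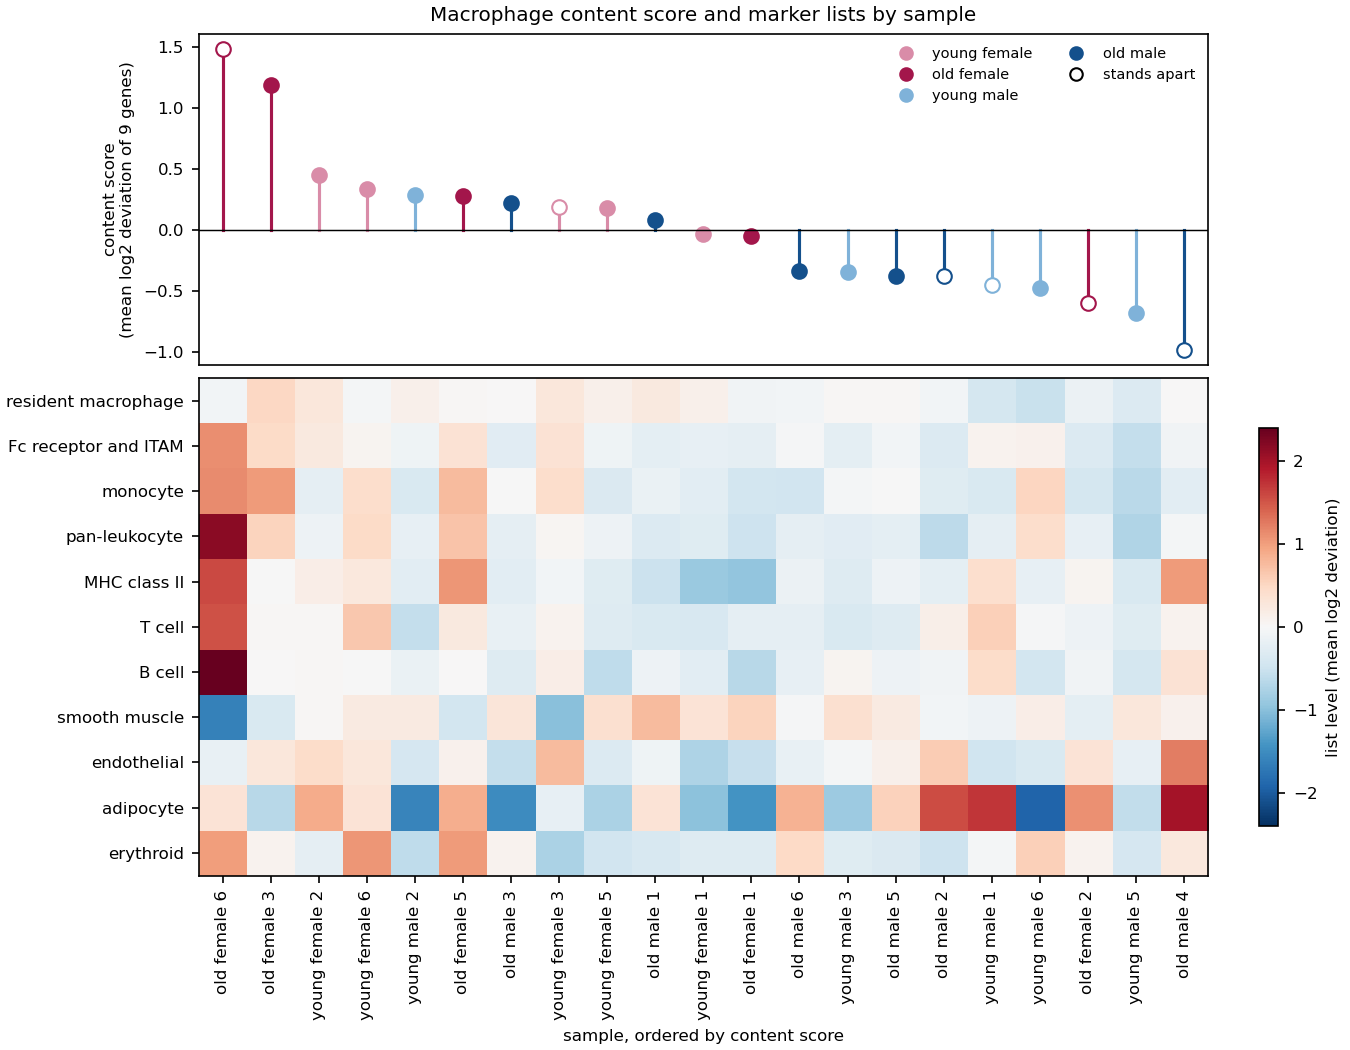
Upper panel: content score (vertical axis, mean log2 deviation of 9 genes) of each of the 21 samples, ordered from highest to lowest and coloured by group, with open points for samples that stood apart. Lower panel: mean log2 deviation of 11 marker lists in the same samples as a colour scale; old female 6 (score 1.48) is also high for T cell, B cell and pan-leukocyte genes, and old female 3 (1.19) is not high for T and B cell genes.

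Between old and young males no member passed the test, and the signs of the differences were mixed. CD163 differed by 0.43 ± 0.37 (old minus young, log2 ± SE from limma, 6 against 5 samples) and MRC1 by 0.75 ± 0.44. CD14 differed by -0.69 ± 0.55, PTPRC by -0.65 ± 0.61, CSF1R by -0.27 ± 0.36, FCER1G by 0.18 ± 0.28 and TYROBP by -0.07 ± 0.28. Both uptake receptors had the higher mean in old males, and CD14 and PTPRC the lower. The groups overlapped for each of the 9 tested probe sets, where 0.666% of all tested probe sets did not overlap.

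In that comparison 0 of 9 member probe sets passed the adjusted threshold, against 0.018% of all probe sets tested, and 0 of 9 had an unadjusted p below 0.05, against 3.36%. A higher mean in old males was found for 4 of 9, against 47.6% of all. Over the 9 genes, those below the filter included, the median difference was 0.18 (5 higher and 4 lower), beside -0.02 for all tested probe sets. The 95% intervals were wide: they ran from -0.33 to 1.19 for CD163, from -0.17 to 1.68 for MRC1 and from -1.82 to 0.45 for CD14. The CD14 value rested on old males 2 and 4, and it was 0.08 ± 0.27 without the 6 samples that stood apart. The sign of CSF1R and TYROBP depended on single samples as well: CSF1R was 0.16 without old male 2, and TYROBP was 0.02 without old male 4 and 0.07 without young male 1. Without the sample labelled young male 1, CD163 differed by 0.44 ± 0.40 and MRC1 by 0.64 ± 0.48.

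Between old and young females no member passed the test either. CD163 differed by -0.40 ± 0.38 and MRC1 by -0.48 ± 0.46 (old minus young), while PTPRC differed by 0.97 ± 0.63, TYROBP by 0.42 ± 0.30, FCER1G by 0.38 ± 0.30, CSF1R by 0.26 ± 0.37 and CD14 by 0.18 ± 0.57. The dim AIF1 probe set had a difference of 1.08 ± 0.73, from an old female mean of 7.73 ± 2.03 (SD, n = 5). Old females 3 and 6 read 10.03 and 9.73 in it, and the other old females 5.49 to 6.71. The AIF1 difference ranged from 0.51 to 1.64 with 1 sample left out, and from -0.71 to 1.18 under 15 other settings. Without old female 6, PTPRC differed by 0.15 ± 0.42. For every one of the 9 tested probe sets the 2 groups overlapped, where 0.342% of all did not.

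By the adjusted threshold, 0 of 9 were called among females, against 0% of all tested. At an unadjusted p below 0.05 only the dimmer PTPRC probe set was higher in old females (1 of 9, against 1.03% of all), by 1.47 ± 0.67 with a 95% interval from 0.08 to 2.86. In that probe set old female 6 read 11.82 and the next sample 9.30. The count of 1 was 0 without old female 5 or 6, without young female 1, 2, 3 or 5 and without the 6 samples that stood apart, and counting both directions it was 3 without old female 2 and 2 without old female 3. A higher mean in old females was found for 6 of 9, against 45.5%. The median over the 9 genes was 0.26, beside -0.03 for all tested, and -0.20 without old females 3 and 6. Without old female 2 the CD163 and MRC1 differences were 0.004 and 0.008. Without the 6 samples that stood apart CD163 was 0.21 ± 0.37. TYROBP and FCER1G were -0.07 and -0.04 without old females 3 and 6.

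Averaged over both sexes, 0 of 9 member probe sets were called, against 0% of all, and 0 of 9 had an unadjusted p below 0.05, against 4.38%. Of the 9, 7 had a higher mean in old animals, against 46% of all tested. The median over the genes was 0.14, beside -0.02 for all tested, and -0.14 without old females 3 and 6. CD163 and CSF1R, at 0.01 ± 0.26 and -0.006 ± 0.26, had almost no mean difference.

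The test of whether the age difference itself differed between the sexes called 0 of 9, against 0% of all tested. The difference (male minus female) was 0.84 ± 0.53 for CD163, 1.24 ± 0.64 for MRC1 and -1.62 ± 0.87 for PTPRC. At an unadjusted p below 0.05 were 2 of 9, against 1.94% of all: the dimmer CD163 probe set (2.64 ± 1.10) and the dimmer PTPRC probe set (-2.02 ± 0.93), in opposite directions. The count of 2 was 0 without old female 6, without young female 3 and without the 6 samples that stood apart. A lower mean was found for 6 of 9, against 47.2%. The median of -0.50 became 0.22 without old females 3 and 6.

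Young males had lower means than young females for all 9 brightest member probe sets. Among the tested probe sets, the 95% interval excluded 0 for the uptake receptors: MRC1 by -1.09 ± 0.46 (male minus female, 95% interval -2.06 to -0.13), CD163 by -0.83 ± 0.38 (-1.62 to -0.03) and its dimmer probe set by -2.32 ± 0.80 (-3.97 to -0.66). The other members differed by -0.23 (PTPRC) to -0.79 (MSR1). The MRC1 probe set and the brighter CD163 probe set were the 2 of 9 tested probe sets whose groups did not overlap with males lower, against 0.405% of all.

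In that comparison 0 of 9 passed the adjusted threshold, against 0.027% of all tested. Those at an unadjusted p below 0.05 and lower in males were 3 of 9, against 0.765%, and those with a lower mean were 8 of 9, against 50.9%. The median over the 9 genes was -0.45, beside -0.01 for all tested. The count at an unadjusted p below 0.05 was 3 of 9 without the samples that stood apart, 1 without young male 1, young male 5 or young male 6, and 2 without young female 2, 3 or 6. The difference was -0.73 ± 0.34 for CD163 and -0.99 ± 0.42 for MRC1 without the samples that stood apart.

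Among old animals no member passed the test either, and the 95% interval excluded 0 for PTPRC, TYROBP, CSF1R and FCER1G. PTPRC differed by -1.86 ± 0.61 (male minus female, 95% interval -3.11 to -0.60), TYROBP by -0.87 ± 0.28 (-1.46 to -0.28), CSF1R by -0.91 ± 0.36 (-1.65 to -0.17), FCER1G by -0.65 ± 0.28 (-1.24 to -0.06) and CD14 by -1.12 ± 0.55 (-2.25 to 0.01). CD163 and MRC1 were near 0, at 0.009 ± 0.37 and 0.14 ± 0.44. The brightest PTPRC probe set was the 1 of 9 whose groups did not overlap with males lower, against 0.171% of all.

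By the adjusted threshold 0 of 9 were called in the old animals, against 0.027%. At an unadjusted p below 0.05 and lower in males were 5 of 9, against 2.01% of all, and 6 of 9 had a lower mean, against 47.4%. The median was -0.87, beside 0.02 for all tested, and it was -0.23 without old females 3 and 6. The count of 5 was 1 without old females 3 and 6, 3 without old female 6 and 3 without the 6 samples that stood apart. PTPRC was -1.04 ± 0.41 without old female 6, and -1.12 ± 0.43 without the samples that stood apart. Without those samples TYROBP was -0.97 ± 0.25 and CSF1R -0.32 ± 0.20. Adding the replicate number as a block gave a median of -0.56. The age and sex comparisons share groups, so their values are not independent of each other.

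**Figure D3:**
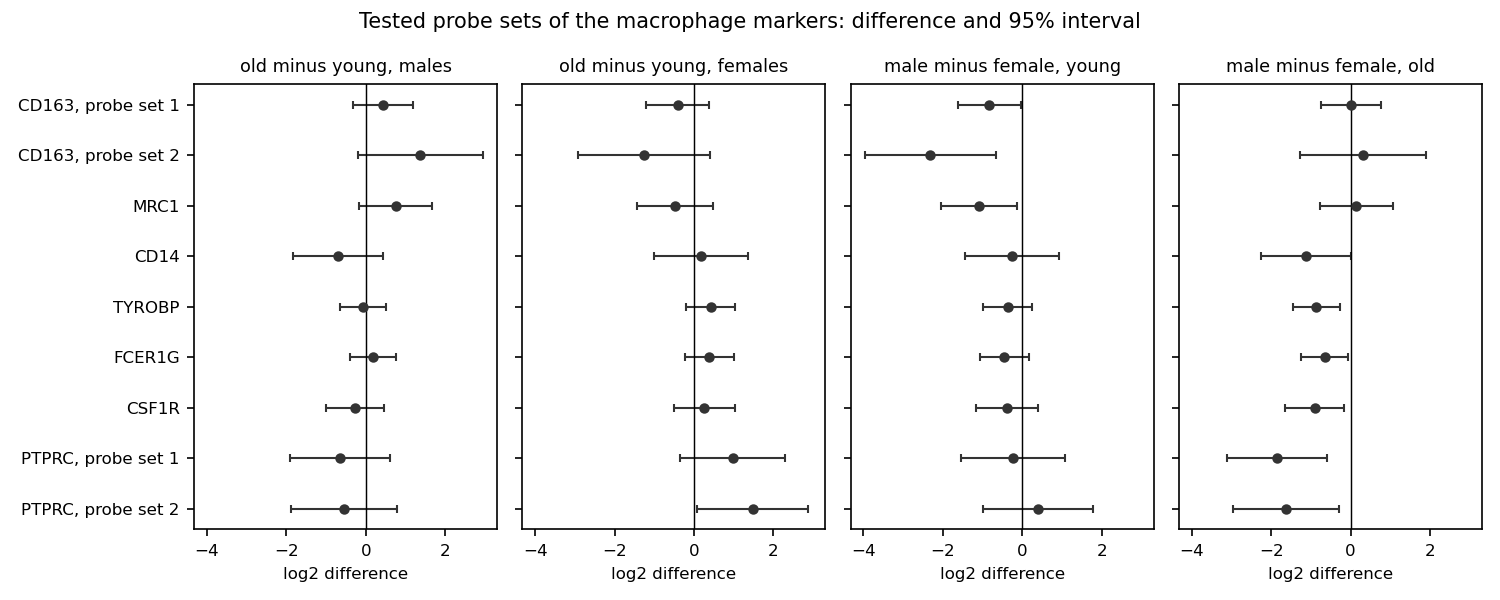
Log2 difference (horizontal axes) with its 95% interval from limma for the 9 tested member probe sets in 4 comparisons: old minus young in males and in females, and male minus female in young and in old animals. Probe set 1 is the brighter and probe set 2 the dimmer of a gene; CD163 and MRC1 lie below 0 in young animals (-0.83 and -1.09), and PTPRC, CSF1R and TYROBP in old animals (-1.86, -0.91 and -0.87).

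Probe sets of 1 gene did not always move together. After subtracting group means, the 2 tested CD163 probe sets correlated at r = 0.89 over the 15 samples that did not stand apart, and the 2 tested PTPRC probe sets at r = 0.78, as a description. The 3 brighter AIF1 probe sets correlated at 0.86 to 0.89 with each other, and the fourth at -0.32 to -0.23 with them. The MSR1 probe sets correlated at 0.05 to 0.65. The dimmest probe sets of CD163 and PTPRC correlated at 0.09 to 0.16 and at -0.02 to 0.19 with the others of their gene.

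Which members varied together was asked over the same 15 samples with group means subtracted. Of the 36 pairs of genes, 29 correlated positively, with a median r of 0.32. CD163 and MRC1 were the closest pair, with Pearson's r of 0.88 and Spearman's rho of 0.82 (permutation p 0.0055 and 0.0063 within groups, Benjamini-Hochberg adjusted 0.110 and 0.113 over the 36 pairs), and r was 0.81 without the 2 samples farthest from the median of CD163. TYROBP and AIF1 followed, with r of 0.82 and rho of 0.77 (permutation p 0.0061 and 0.0037, adjusted 0.110 and 0.113) and r of 0.63 without the 2 farthest. So 0 of 36 pairs passed after adjustment. CSF1R stood out for its weak relation to the rest, with r between -0.12 and 0.23.

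With all 21 samples 32 pairs were positive, the median r was 0.40 and 3 pairs passed for Pearson's r. They were CD163 with MRC1 (r = 0.87, permutation p adjusted 0.0112), MRC1 with CD14 (0.59, adjusted 0.0362) and TYROBP with FCER1G (0.80, adjusted 0.0362). For 2 of them, CD163 with MRC1 and TYROBP with FCER1G, rho passed as well. Old females 2 and 3 were the farthest samples for CD163, and without them r with MRC1 was 0.67.

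**Figure D4:**
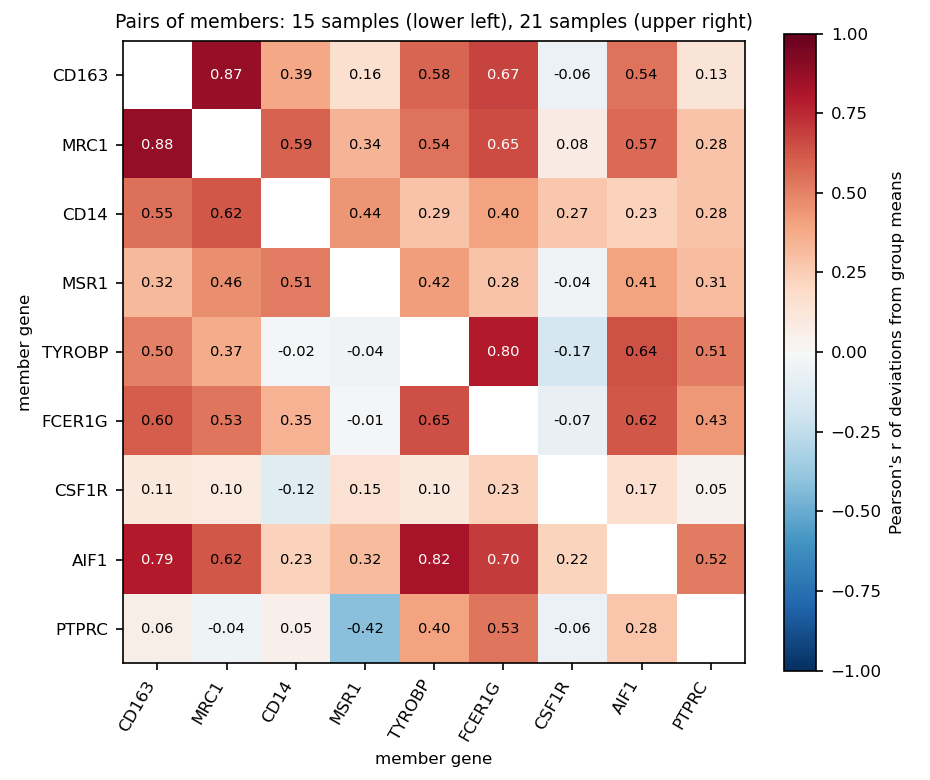
Pearson's r between deviations from group means for each pair of the 9 members, with genes on both axes: lower left, the 15 samples that did not stand apart; upper right, all 21 samples. CD163 with MRC1 is the highest in both parts (0.88 and 0.87), and CSF1R is near 0 with most members.

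Other genes of macrophage biology are given from lists. No gene of any list passed the adjusted threshold in any of the 6 comparisons. Of 19 resident macrophage genes on the array 14 were tested (median -0.46 for young males minus young females, beside -0.01 for all tested). A lower mean in young males was found for 12 of these, where 50.9% of all tested probe sets had one. Among them were STAB1, a clearance receptor (-0.78 ± 0.32), LYVE1, a hyaluronan receptor (-0.97 ± 0.47), C1QB, a subunit of complement C1q (-0.75 ± 0.37), and SIGLEC1, a sialic acid receptor (-0.52 ± 0.23). Old against young, 12 of 14 had the higher mean in males (median 0.32), where 47.6% of all tested probe sets did. In females 8 of 14 did (median 0.03), where 45.5% of all did.

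Most genes of 3 leukocyte lists had a lower mean in old males than in old females, where 47.4% of all tested probe sets did, with none past the threshold. All 10 tested pan-leukocyte genes were lower there (median -0.90, with 6 at an unadjusted p below 0.05, where 2.01% of all were), among them the GTPase RAC2 (-1.73 ± 0.55) and the adhesion molecule CD48 (-1.14 ± 0.39). Of 7 tested monocyte genes 6 were lower there (median -0.72), and of 10 Fc receptor and ITAM signalling genes 10 were lower (median -0.52), among them the kinase LYN (-0.64 ± 0.23) and the inhibitory receptor FCGR2B (-0.82 ± 0.40). These medians moved with old females 3 and 6. The pan-leukocyte mean deviation was 2.17 in old female 6 and at most 0.69 elsewhere, and without that sample the pan-leukocyte median was -0.41, with 2 genes at an unadjusted p below 0.05. Without both samples the medians were -0.27 for the pan-leukocyte, 0.01 for the monocyte and -0.04 for the Fc receptor list. Most genes of these lists were also lower in young males than in young females, where 50.9% of all tested probe sets were. The counts were 9 of 10 pan-leukocyte (median -0.32), 5 of 7 monocyte (-0.27) and 7 of 10 Fc receptor genes (-0.23). Of 14 resident macrophage genes 8 were lower in old males than in old females (median -0.09). Of the smooth muscle genes 11 of 11 had higher means in old males (median 0.65, and 0.09 without old females 3 and 6). The 3 tested red cell genes had lower means in old males (median -1.01), among them the beta globin HBB (-2.05 ± 1.11). HBB read 14.87, 12.97 and 15.12 in old females 6, 3 and 5, the samples highest for TYROBP and FCER1G, and 10.48 and 12.19 in old females 1 and 2. It was also high in young female 6, young male 6 and old male 6, at 15.21, 15.03 and 13.72. In those samples TYROBP read 9.52, 8.91 and 8.91, and FCER1G 10.36, 9.85 and 9.98, below old females 3, 5 and 6. The parts of smooth muscle, blood and other leukocytes in the members' differences were not tested.

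The age comparisons of the lists were mixed. Of 9 MHC class II genes, which present antigen to T cells, 9 had a higher mean in old males (median 0.24, where 47.6% of all probe sets were higher) and 8 in old females (median 0.48, where 45.5% were). By the list's mean deviation, old male 4 was at 1.03 and the other old males from -0.52 to -0.12, and without old male 4 the count in males was 6 of 9 (median 0.03). Without old female 6 the count in females was 6 of 9 (median 0.09). Of 17 lipid-laden macrophage genes 13 were higher in old males (median 0.30) and 13 in old females (median 0.14). SPP1 differed by 2.25 ± 0.81 in females, where old female 6 read 14.32. Toll receptor genes had medians of 0.28 in males and 0.04 in females over 11 genes, and genes of haemoglobin and iron handling -0.05 and -0.03 over 9. For the CSF1 and myeloid factor list they were 0.31 and 0.15 over 11 genes, and for other scavenger receptors 0.04 and 0.04 over 7. PPARG of the CSF1 list, at 2.12 ± 0.93 in males, is also in the adipocyte list given below. So are FABP4 and LPL of the lipid-laden list. What these shared genes contribute was not tested.

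Lists of other cells had few tested genes: 4 for T cells, 2 each for B cells, neutrophils and mast cells, 3 for dendritic cells, 3 for red cells and 0 for natural killer cells. The adipocyte list had a median of 1.53 in old against young males, higher in 9 of 9 genes, where 47.6% of all tested probe sets were. Its mean deviation ran from -1.93 in young male 6 to 1.99 in old male 4, the sample with the lowest content score. The endothelial list had medians of 0.27 in males and -0.07 in females, and the fibroblast list -0.32 and -0.41.

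Finally, genes were ranked by their correlation with the content score, group means subtracted, over the 15 samples that did not stand apart. Of 6936 genes outside the members the 10 closest were CCR1, a chemokine receptor of monocytes and macrophages (r = 0.87), SREK1, TFE3, XRCC5, EMC2, SRP72, LAMA4, C2CD3, PRR13 and RPS29 (0.81). The order depended on the samples: over all 21, SREK1, LAMA4 and C2CD3 had r of -0.18, -0.27 and -0.17. There the closest was CYBB, the catalytic subunit of the phagocyte oxidase (0.79), followed by OSBPL10, ARPC3, LYZ (lysozyme, 0.78), SUB1, CD53 (0.77), WIPF1, KIAA0753, IGFLR1 and NACA4P (0.75). These ranks are descriptions of these samples.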

How the data were processed

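The authors deposited 1 linear intensity per probe set and array, for 24 single-colour arrays; the sources used here do not say how probes were summarised or arrays scaled. Per the labels' protocols, total aortic RNA was converted to biotin-labelled RNA. The 62 control probe sets were left out. Deposited intensities were converted to log2(intensity + 16), which understates changes of dim genes, and quantile normalised. Near-identical arrays (correlation of deviations above 0.7) were averaged, and arrays with a median correlation below 0.85 were taken to stand apart. Probe sets at or above the median mean level were tested, 11108 in all, with limma 3.58.1 in R 4.3.3 (a mean per group over all 21 samples, intensity trend, Benjamini-Hochberg over all probe sets, threshold 0.05). The annotation of the array named 1 gene for 19064 probe sets, more than 1 for 1043 (left unnamed) and none for 2108.

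The members and lists were chosen with earlier results of these data known. Named were all members, up to 4 genes of each other list with the smallest p and up to 3 defining markers of each other cell type. The 10 genes closest to the content score and genes shared with the adipocyte list were named too. The score was designed over 10 genes and uses 9, since CD68 had no probe set of its own, with 1 probe set (the brightest) per gene. Correlations used 100000 permutations within groups. On simulated data for old against young males (11108 probe sets), the model called 37 of 100 probe sets changed by 1 on the log2 scale and 88 of 100 changed by 2. The number of arrays limits the precision. Alternatives were the normalisation, pseudocount, filter, averaging of arrays, left-out samples, weights, covariates and the replicate number as a block.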

Additional observations from a re-analysis of the deposited data

Results flagged for a closer look

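Each member's brightest probe set, and the content score, was examined in each of the 4 groups, 40 sets of values in all. In 4 of them 1 sample lay so far from the others that its gap to the nearest took up most of the group's range. Chance alone flags about 1 in 20 such groups.

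PTPRC in old female 6 read 12.19 (log2 level), against 8.93 in the nearest old female. CSF1R in old male 2 read 6.74, below all other old males, the nearest at 9.13. AIF1 in old male 3 read 7.52, against 6.21 in the nearest old male, and AIF1 in young male 2 read 7.87, against 5.78 in the nearest young male. The other 2 AIF1 probe sets that correlate with this one read 5.86 and 6.03 in old male 3, within the range of the other old males, and 6.40 and 6.93 in young male 2. Old female 6 and old male 2 are among the samples that stood apart, while old male 3 and young male 2 are not.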

How the results depend on the processing

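No member was called in any of the 6 comparisons under any of 15 other settings or with any 1 of 21 samples left out, so the counts ranged from 0 to 0. The smallest adjusted p of a member under any of them was 0.425, in old against young males with array weights. A change of sign was counted only for tested members whose main difference exceeded its SE. AIF1, below the filter, was not counted, though its sign changed under some of the 15 settings. There it ranged from -0.71 to 1.18 for age in females and from -0.24 to 0.78 for age in both sexes. For sex in old animals it ranged from -1.53 to 0.31. CD14 in males was 0.0807 without the 6 samples that stood apart, with or without old female 3. In females CD163 was 0.212 without those 6, with 1 sample left out it ranged from -0.797 to 0.00408 and MRC1 from -0.866 to 0.00805 (both highest without old female 2), and TYROBP and FCER1G were -0.0740 and -0.0410 without old females 3 and 6. The difference of the age effects between the sexes was 0.00206 for TYROBP without old females 3 and 6. Without old females 3 and 6 the medians over the 9 genes changed sign for age in females, from 0.26 to -0.20, and in both sexes, from 0.14 to -0.14. Medians also moved for the difference of the age effects, to 0.22 without old females 3 and 6 and 0.12 without the 6 and old female 3, and for old males against old females, to -0.23 without old females 3 and 6. With 1 sample left out, the medians ranged from -0.02 to 0.31 for age in males, 0.15 to 0.53 in females, -0.0009 to 0.31 in both, -0.62 to -0.24 for their difference, -0.58 to -0.34 for sex in young and -1.01 to -0.56 in old animals. With all 21 samples 3 pairs of members passed the correlation test, against 0. The span of the content score was 2.47, and 1.96 to 2.71 under 7 other settings. The settings without old females 3 and 6, without old female 3 and the 6, and with the probe set shared by CD68, and the lists without single samples, were chosen after seeing the data. The deviations of samples with the same replicate number had a median r of 0.06 over 30 pairs (from -0.42 to 0.51). Over 135 pairs with different numbers it was -0.006 (from -0.50 to 0.51). Single genes could still go with the number: HBB read 14.87, 13.72, 15.21 and 15.03 in the samples numbered 6. Elsewhere HBB read at most 12.97, except 15.12 in old female 5. Whether samples of 1 number shared their handling was not tested. The replicate block gave medians of 0.27 for age in males and -0.56 for sex in old animals, with 0 members called. Counts over all tested probe sets changed by more than 1.5 times in old against young males (2, and 0 to 25, the highest with array weights) and in age over both sexes (0, and up to 5). For sex in young and old animals they did so only with no filter, where all 22215 probe sets were tested. There 5 and 6 were called, against 3 in each comparison in the main setting and at most 4 in the others. Members lower in old males at an unadjusted p below 0.05 numbered 5, and 2 with array weights. The causes of these changes were not tested.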
